A study of Mus musculus with 4 samples.

Results

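The genes described here are 8 genes of cholesterol synthesis and its control: Hmgcs1, Idi1, Fdps, Fdft1, Sqle, Lss and Cyp51, which encode enzymes of the pathway, and Srebf2, which encodes its main transcriptional activator, SREBP2. They were found by matching the Ensembl gene identifiers of the deposited expression table to these mouse symbols, and all 8 were present among the 23552 genes of the table. RNA-Seq measured gene expression in c-Kit+ leukemic cells taken from the bone marrow of moribund C57BL/6 mice with acute myeloid leukemia (AML) driven by the MLL-AF9 (MA9) fusion, which every sample of both groups carried. The control group had 2 libraries (replicates 3 and 4) of cells overexpressing eGFP alone, labelled control-eGFP overexpression. The SUV-OE group had 2 libraries (replicates 2 and 3) of cells overexpressing Suv39h1, an H3K9 methyltransferase, together with eGFP, labelled Suv39h1-eGFP overexpression. All 4 libraries were labelled as RNA-seq batch 2.

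By the study's methods, serially passaged MA9 cells were transduced with an MSCV-IRES-EGFP construct, sorted for eGFP and transplanted into irradiated C57BL/6J females of 8 weeks. The leukemic cells of a library therefore came from a transduced population inside a recipient that kept part of its own marrow. Whether the marrow of several mice was pooled, whether the 2 libraries of a group came from separate mice, and whether eGFP was sorted again before RNA extraction are not given in the sources used here. The p-values below measure only the spread between these libraries.

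Cells make cholesterol from acetyl-CoA. The first steps build mevalonate, the middle steps turn it into the isoprenoids isopentenyl and farnesyl diphosphate and then into the hydrocarbon squalene, and the last steps close the sterol rings of lanosterol and trim them to cholesterol. SREBP2 is held in the endoplasmic reticulum by SCAP and the INSIG proteins while sterols are plentiful. When sterols fall, SCAP carries it to the Golgi, where the site-1 and site-2 proteases release a fragment that enters the nucleus and activates the genes of the pathway, genes of lipoprotein uptake and its own gene. Growing blood cells, leukemic cells included, use both synthesis and uptake to supply their membranes.

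Reads recovered from the steps between the deposited values numbered from 20166870 to 23662235 a library. FPKM is fragments per kilobase of exon, scaled by a divisor for each library, and 3 reads on 1 kb of exon were worth 0.154 to 0.178. That divisor was below the recovered reads in every library. It was 19453058 and 16873770 in control replicates 3 and 4, and 17745309 and 17778673 in SUV-OE replicates 2 and 3. The reason for this was not tested. The overexpressed gene itself, Suv39h1, had an FPKM of 12.4 in both control libraries against 75.3 and 81.2 in SUV-OE cells, and its log2 fold change of 2.56 passed the test (limma adjusted p = 0.00866). Each gene with a mean FPKM of at least 0.5 was tested on log2(FPKM + 1) with limma, 13736 genes in all. The passing threshold was a Benjamini-Hochberg adjusted p under 0.05, which 177 genes (1.29%) met, 59 of them lower (0.43%) and 118 higher (0.859%) in SUV-OE. Log2 fold changes below are SUV-OE minus control on the log2(FPKM + 1) scale, which understates the change of genes with low expression. With 2 libraries against 2, an exact two-sided permutation test of a single gene cannot give a p below 0.333.

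The 7 enzyme genes all had a lower mean FPKM in SUV-OE than in control cells, from 67.5% of the control mean for Lss to 90.1% for Cyp51. Srebf2 stood at 107% of its control mean. None of the 8 genes passed the test in either direction, where 1.29% of all tested genes did. At an unadjusted limma p under 0.05, 3 of the 8 genes (Idi1, Fdft1 and Sqle) were lower and 0 were higher, beside 10.4% and 10.3% of all tested genes. In 6 of the 8 genes (Idi1, Fdps, Fdft1, Sqle, Lss and Cyp51) each SUV-OE library lay below each control library, which held for 28.4% of all tested genes. The median log2 fold change was -0.30 over the 8 genes, -0.37 over the 7 enzyme genes and -0.02 over all tested genes. With limma-voom on the recovered reads, 0 of the 8 genes passed, where 6.13% of 14351 tested genes passed (1.83% lower and 4.3% higher). At an unadjusted limma-voom p under 0.05, 4 of the 8 were lower, beside 11.1% of all genes tested that way.

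**Figure D1:**
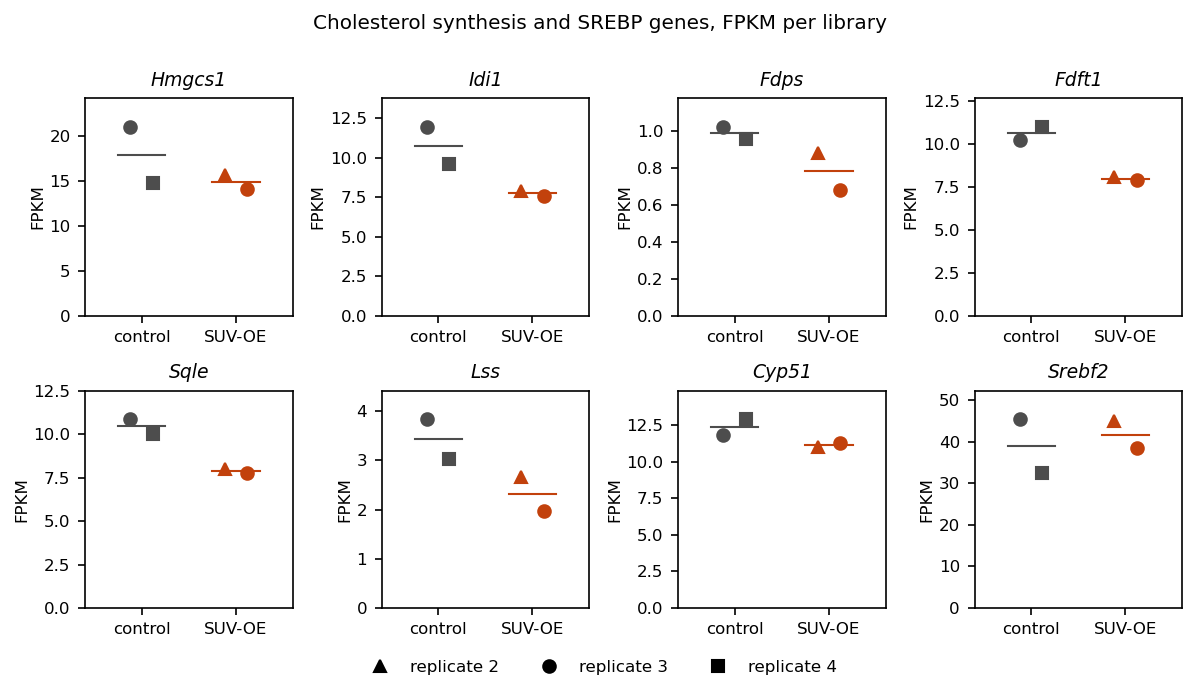
FPKM (vertical axes, each starting at 0) of the 8 genes in the 2 control libraries (grey) and the 2 SUV-OE libraries (orange), with a bar at each group mean and the replicate number shown by the symbol. In Idi1, Fdps, Fdft1, Sqle, Lss and Cyp51 both SUV-OE points lie below both control points, while the groups overlap in Hmgcs1 and Srebf2.

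Mevalonate and isoprenoid steps are represented by 3 of the genes. Hmgcs1 (ENSMUSG00000093930, chromosome 13, 119690379 to 119708260 in mm10, forward strand) encodes the cytosolic HMG-CoA synthase, which makes the direct precursor of mevalonate. Its FPKM was 21.0 and 14.8 in control replicates 3 and 4 and 15.7 and 14.0 in SUV-OE replicates 2 and 3, the order in which values are given throughout. One control library was high and the other lay between the SUV-OE libraries, so the groups overlapped. The log2 fold change was -0.24 (95% confidence interval -0.74 to 0.26, limma adjusted p = 0.532), and the control libraries differed from each other by 0.48, more than the groups did. Without control replicate 3 the log2 fold change was 0.0021. An antisense gene, Gm48342, covers 12.1% of the exon bases of Hmgcs1, and fragments from there cannot be assigned to a strand.

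Idi1 (ENSMUSG00000058258, chromosome 13, 8885501 to 8892451 in mm10, forward strand) encodes isopentenyl-diphosphate isomerase, which converts isopentenyl diphosphate into dimethylallyl diphosphate. Its FPKM was 12.0 and 9.57 in control cells against 7.91 and 7.59 in SUV-OE cells, from 816, 566, 492 and 473 recovered reads. Both SUV-OE values were below both control values, with a wider spread in control. The SUV-OE mean was 72.0% of the control mean and the log2 fold change was -0.42 ± 0.14 (SE, 95% confidence interval -0.79 to -0.05, limma adjusted p = 0.207). Without control replicate 3 it was -0.27. This interval, which is not adjusted for the number of genes tested, excluded 0, but the p did not pass after adjustment. Of its 75-base words, 16.7% also occur in the processed pseudogene Gm13502, which had an FPKM of 0.953 to 1.64.

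Fdps (ENSMUSG00000059743, chromosome 3, 89093588 to 89101959 in mm10, reverse strand) encodes farnesyl diphosphate synthase, the branch point towards squalene, dolichol, ubiquinone and protein prenylation. It was the lowest of the 8 genes, with an FPKM of 1.03 and 0.958 in control cells against 0.884 and 0.682 in SUV-OE cells, from 84, 68, 66 and 51 recovered reads. The groups did not overlap, but the highest SUV-OE value lay close to the lowest control value. The log2 fold change was -0.16 (95% confidence interval -0.59 to 0.26, limma adjusted p = 0.614). It was -0.080 without SUV-OE replicate 3, -0.32 with a pseudocount of 0.1, -0.31 after quantile normalization and -0.35 with limma-voom. This level is uncertain, because 23.5% of the gene's 75-base words are shared with other annotated genes, among them Gm43738, a protein-coding gene on the same strand that covers 26.7% of its exon bases, and pseudogenes. The FPKM of Fdps therefore counts only the fragments that the authors' counting gave to it.

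The squalene and ring-closing steps are covered by Fdft1, Sqle and Lss. Fdft1 (ENSMUSG00000021273, chromosome 14, 63145150 to 63179578 in mm10, reverse strand) encodes squalene synthase, which joins a pair of farnesyl diphosphates and is the first enzyme committed to sterols. Its FPKM was 10.2 and 11.0 in control cells against 8.06 and 7.91 in SUV-OE cells. The gap between the groups was larger than the spread within either. The SUV-OE mean was 75.2% of the control mean and the log2 fold change was -0.37 ± 0.11 (SE, 95% confidence interval -0.66 to -0.08, limma adjusted p = 0.173). The gene shares 18.3% of its exon bases with Ctsb, which is transcribed from the opposite strand and had an FPKM of 93.5 to 105. The library kit does not mark strand, so fragments from that stretch cannot be assigned between the genes.

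Sqle (ENSMUSG00000022351, chromosome 15, 59315077 to 59331192 in mm10, forward strand) encodes squalene epoxidase, a rate-limiting oxygenase of the sterol branch. Its FPKM was 10.9 and 10.04 in control cells against 7.98 and 7.80 in SUV-OE cells, from 1174, 940, 785 and 769 recovered reads. As for Fdft1, the gap between the groups exceeded the spread within them. The SUV-OE mean was 75.4% of the control mean and the log2 fold change was -0.37 ± 0.11 (SE, 95% confidence interval -0.66 to -0.08, limma adjusted p = 0.179). No 75-base word of Sqle occurred in another annotated gene and no annotated gene overlapped it, so of the genes with unadjusted p under 0.05 it was the one free of shared sequence.

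Lss (ENSMUSG00000033105, chromosome 10, 76531588 to 76557138 in mm10, forward strand) encodes lanosterol synthase, which folds epoxidized squalene into the first sterol. Its FPKM was 3.84 and 3.02 in control cells against 2.65 and 1.98 in SUV-OE cells, from 806, 550, 508 and 379 recovered reads. The groups did not overlap, but both groups were spread. The SUV-OE mean was 67.5% of the control mean, the lowest share among the 8 genes, and the log2 fold change was -0.42 ± 0.18 (SE, 95% confidence interval -0.89 to 0.05, limma adjusted p = 0.276). Without SUV-OE replicate 3 it was -0.27. An antisense gene covers 3.53% of its exon bases.

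Cyp51 (ENSMUSG00000001467, chromosome 5, 4081145 to 4104746 in mm10, reverse strand) encodes the lanosterol demethylase, the first of the enzymes that trim lanosterol. Its FPKM was 11.8 and 12.9 in control cells against 11.0 and 11.3 in SUV-OE cells, from 1016, 964, 862 and 888 recovered reads. The groups did not overlap, but this was the smallest difference among the enzyme genes, with a log2 fold change of -0.14 (95% confidence interval -0.43 to 0.15, limma adjusted p = 0.534) that was -0.078 without control replicate 4. An exon overlap of 3.76% with Akap9 lies on the opposite strand.

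Srebf2 (ENSMUSG00000022463, chromosome 15, 82147181 to 82205379 in mm10, forward strand) was the most highly expressed of the 8 genes. Its FPKM was 45.5 and 32.5 in control cells against 44.9 and 38.6 in SUV-OE cells. Both SUV-OE values lay between the control values. The log2 fold change was 0.11 (95% confidence interval -0.41 to 0.63, limma adjusted p = 0.783), and without control replicate 4 it was -0.13. These values are of the transcript, and the processing of the SREBP2 protein was not measured.

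The order of expression was nearly the same in both groups. In control cells Srebf2 (mean FPKM 39.0) was followed by Hmgcs1 (17.9), Cyp51 (12.4), Idi1 (10.8), Fdft1 (10.6), Sqle (10.5), Lss (3.43) and Fdps (0.992). The ranges of Cyp51 and Idi1, of Idi1 and Fdft1 and of Fdft1 and Sqle overlapped, so neighbours among these 4 genes could not be ranked. In SUV-OE cells the order was Srebf2 (41.7), Hmgcs1 (14.9), Cyp51 (11.2), Fdft1 (7.98), Sqle (7.89), Idi1 (7.75), Lss (2.32) and Fdps (0.783). There the ranges of Fdft1, Sqle and Idi1 overlapped with their neighbours, and Cyp51 stood above all 3.

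The 8 genes also differed between the libraries of a group. In 6 of the 8 genes control replicate 3 was above control replicate 4 (Fdft1 and Cyp51 were the exceptions), and in 7 of the 8 SUV-OE replicate 2 was above SUV-OE replicate 3 (the exception was Cyp51). After each gene was centred on its own mean over the 4 libraries, the median over the 8 genes was 0.21 for control replicate 3, 0.07 for control replicate 4, -0.07 for SUV-OE replicate 2 and -0.20 for SUV-OE replicate 3, on the log2(FPKM + 1) scale. The step between the control libraries was thus about as large as the step from control replicate 4 to SUV-OE replicate 2. The count of genes with every SUV-OE library below the control libraries was 6 without control replicate 3 (43.4% of all tested genes) and 8 without control replicate 4 (43.7%). It was 7 without SUV-OE replicate 2 (36.4%) and 6 without SUV-OE replicate 3 (37.8%). Without control replicate 3, 1 gene, Srebf2, had its SUV-OE libraries above control (38.8% of all tested genes). Fdps, Idi1 and Fdft1 share sequence with other annotated genes, and among the 5 genes left without them 3 had each SUV-OE library below each control library, beside 28.4% of all tested genes, with a median log2 fold change of -0.24.

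Markers of other cell types differed between the same libraries. The labels give the cells as c-Kit+, and 6 markers listed for myeloid leukemic progenitors (Kit, Cd34, Mpo, Hoxa9, Meis1 and Ptprc) were above 0 in every library, with a summed FPKM of 482 to 502 in control and 439 to 478 in SUV-OE. Mpo made up most of these sums, and 4 of the 6 had a higher and 2 a lower fitted value in SUV-OE, with 0 passing. Kit itself had an FPKM of 20.4 and 19.2 in control cells against 28.6 and 25.4 in SUV-OE cells. The summed FPKM of 6 neutrophil markers (Ltf, Camp, Ngp, S100a8, S100a9 and Mmp8) stood, from lowest to highest, at 720 for control replicate 3, 2310 for control replicate 4, 6492 for SUV-OE replicate 2 and 7913 for SUV-OE replicate 3. All 6 had a higher fitted value in SUV-OE, and 1 passed the limma test. Over all tested genes, 6458 of 13736 had a higher fitted value and 0.859% passed as higher, and each marker count here stands beside these shares. The order of the neutrophil sums is the inverse of the order of the libraries in the centred median of the 8 genes. In the 13 other synthesis genes described below, however, control replicate 3 (0.12) was not above control replicate 4 (0.16). Summed FPKM was 16.6 to 116 in control and 89.7 to 116 in SUV-OE for 7 erythroid markers, all 7 of which had a higher fitted value in SUV-OE, with 1 passing. It was 18.5 to 27.5 and 35.8 to 79.4 for 7 B-lymphoid markers, 352 to 635 and 343 to 376 for 6 monocyte and macrophage markers, 6.43 to 12.5 and 23.1 to 27.4 for 4 megakaryocyte markers, and 17.0 to 24.0 and 64.8 to 71.5 for 4 endothelial markers, where the 1 marker tested, Pecam1, passed as higher. The monocyte sum was mostly Ly6c2, the 1 lower of its 5 tested markers, and the other 4 had higher fitted values. The B-lymphoid list had 6 higher and 1 lower and the megakaryocyte list 3 higher and 1 lower, with 0 passing in these 3 lists. The 5 T and NK markers summed to 0.472 and 0.745 in control and to 1.798 and 1.26 in SUV-OE, the 4 stromal markers summed to 1.57 or less in every library, and no marker of any list was at 0 in all 4 libraries. In bulk RNA, fewer cells of a type and less RNA per cell cannot be told apart, and the part of these markers in the values of the cholesterol genes was not tested.

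The rest of the pathway was described with 13 further enzyme genes. Of these, 11 had a lower fitted value in SUV-OE and 2 a higher one, and the median log2 fold change was -0.39. None passed the limma test in either direction or with limma-voom, 7 were lower and 0 higher at an unadjusted limma p under 0.05, and in 9 each SUV-OE library lay below each control library. Over all tested genes these shares were 10.4% lower and 10.3% higher at an unadjusted p and 28.4% with lower groups. Among the mevalonate steps, Acat2 (acetoacetyl-CoA thiolase) had an FPKM of 18.2 and 18.7 in control cells against 14.1 and 12.1 in SUV-OE cells, a log2 fold change of -0.46 with the lowest adjusted p of the 13 (limma adjusted p = 0.148). Mvk, the mevalonate kinase gene, had the largest difference, with an FPKM of 10.1 and 6.96 in control cells against 5.50 and 4.10 in SUV-OE cells (log2 fold change -0.71 ± 0.22 SE, limma adjusted p = 0.184). Pmvk (-0.45) and Mvd (-0.39), which encode the phosphomevalonate kinase and the mevalonate diphosphate decarboxylase, also had non-overlapping groups.

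Ggps1, which encodes the geranylgeranyl diphosphate synthase of the non-sterol branch, had an FPKM of 6.62 and 7.54 in control cells against 7.24 and 6.87 in SUV-OE cells, with overlapping groups (95% confidence interval of the log2 fold change -0.32 to 0.32).

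Among the enzymes that process lanosterol, log2 fold changes were -0.58 for Hsd17b7, -0.42 for Nsdhl, -0.40 for Msmo1, -0.33 for Ebp, -0.20 for Tm7sf2 and -0.16 for Sc5d. Ebp ranged from -0.58 without control replicate 3 to -0.070 without control replicate 4, and Sc5d was at -0.060 and -0.25 without the same libraries. Lbr (0.13) and Dhcr7 (0.09) were the 2 genes with higher values. Lbr encodes a nuclear envelope protein with sterol reductase activity, and its FPKM was 83.3 and 84.2 in control cells against 93.4 and 90.6 in SUV-OE cells. Tm7sf2 encodes the other enzyme with this reductase activity, and its FPKM was 5.42 and 5.34 in control cells against 4.66 and 4.46 in SUV-OE cells. The control libraries were farther apart than the group means on the log2 scale in 4 of the 20 enzyme genes described in all (Hmgcs1, Ggps1, Ebp and Sc5d). Over the 20 enzyme genes, 18 had a lower and 2 a higher fitted value, and 15 had non-overlapping groups with lower and 2 with higher SUV-OE values (28.4% and 25.4% of all tested genes). The 7 genes described first are part of the 20, and none of the 20 passed the limma test (10 were lower and 0 higher at an unadjusted p under 0.05, beside 10.4% and 10.3% of all tested genes).

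**Figure D2:**
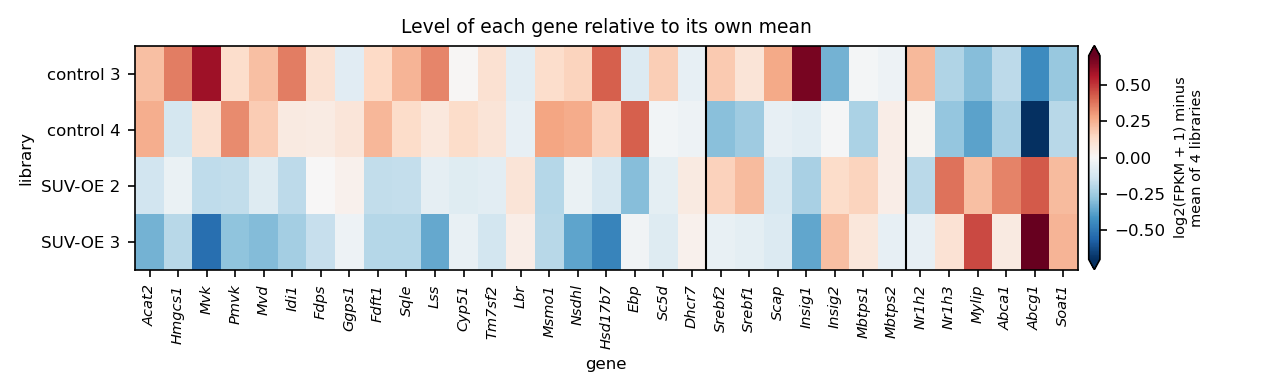
Level of each gene (columns, in pathway order) in each library (rows), as log2(FPKM + 1) minus the gene's mean over the 4 libraries, with red above and blue below that mean and the colour scale cut at both ends. Black lines separate the 20 synthesis enzymes, Srebf2 with the SREBP machinery, and the LXR and efflux genes. Each control library is above the mean in most synthesis genes, and each SUV-OE library is below it in most.

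Of the 6 other genes of the SREBP machinery, 3 had lower and 3 had higher fitted values, with a median log2 fold change of 0.07. None passed the limma test, with 0 at an unadjusted limma p under 0.05 in either direction (10.4% of all tested genes lower and 10.3% higher). None passed with limma-voom, with 1 lower at an unadjusted p under 0.05 (11.1% of all genes tested that way). Insig1, which retains the SCAP complex and is itself an SREBP target, had an FPKM of 44.0 and 26.0 in control cells against 23.3 and 21.0 in SUV-OE cells. Control replicate 3 stood far above the other 3 libraries, and the log2 fold change was -0.59 ± 0.26 (SE, 95% confidence interval -1.27 to 0.09, limma adjusted p = 0.291). Without control replicate 3 it was -0.22 and without control replicate 4 it was -0.96. Insig2, the related retention factor that is not a classical SREBP2 target, had an FPKM of 3.52 and 4.64 in control cells against 5.21 and 5.57 in SUV-OE cells. Its log2 fold change was 0.34 (limma adjusted p = 0.305), and 0.18 without control replicate 3. The difference between the changes of the pair was not tested.

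Scap, the escort of SREBP, had a log2 fold change of -0.21 with non-overlapping groups, but the control libraries were farther apart than the group means, and the value was -0.049 without control replicate 3 and -0.37 without control replicate 4. Mbtps1, the site-1 protease gene, had a log2 fold change of 0.24 with each SUV-OE library above each control library. Without control replicate 4 the value of Mbtps1 was 0.13. The site-2 protease gene Mbtps2 was at -0.01 and Srebf1, which encodes the fatty acid regulator SREBP1, at 0.16, both with overlapping groups. Srebf1 was at -0.011 without control replicate 4.

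Of the 5 uptake and transport genes described, none passed the limma test or limma-voom, and 0 were lower and 1 higher at an unadjusted limma p under 0.05 (10.4% and 10.3% of all tested genes). Stard4, a sterol carrier gene, had a log2 fold change of -0.19 with lower SUV-OE values and non-overlapping groups (limma adjusted p = 0.442). Lrp8, which encodes a lipoprotein receptor that also binds reelin, had the largest difference, with an FPKM of 3.39 and 2.98 in control cells against 5.11 and 4.16 in SUV-OE cells. Its groups did not overlap, and the log2 fold change was 0.42 ± 0.15 (SE, 95% confidence interval 0.04 to 0.81, limma adjusted p = 0.214). The median of the 5 genes was -0.04, and it was 0.18 after quantile normalization.

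Liver X receptors are sterol-sensing nuclear receptors that activate cholesterol export when sterols are plentiful. Of the 8 genes listed for them, for efflux and for oxysterols, 7 were tested, and Ch25h was left out with an FPKM of 0 in 3 libraries and 0.0833 in SUV-OE replicate 3. Abca1 and Nr1h3, with control means under an FPKM of 0.5, were tested only through their higher SUV-OE values, so they are left out of the counts. Of the other 5, 4 had higher fitted values in SUV-OE, and the median log2 fold change of the 5 was 0.46. In 3 each SUV-OE library lay above each control library (25.4% of all tested genes). In 1, Nr1h2, each SUV-OE library lay below each control library (28.4% of all tested genes). None of the 7 passed the limma test, and of the 5, 3 were higher and 0 lower at an unadjusted limma p under 0.05 (10.3% and 10.4% of all tested genes). The exporter gene Abcg1 had an FPKM of 3.40 and 2.61 in control cells against 7.04 and 8.98 in SUV-OE cells. The SUV-OE mean was 267% of the control mean, and the log2 fold change was 1.17 ± 0.18 (SE, 95% confidence interval 0.71 to 1.63, limma adjusted p = 0.0653). With limma-voom Abcg1 passed as higher in SUV-OE (limma-voom adjusted p = 0.0131), where 4.3% of all genes tested that way were called higher.

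Mylip, which encodes the ubiquitin ligase IDOL that removes lipoprotein receptors, had an FPKM of 6.21 and 5.85 in control cells against 9.24 and 11.2 in SUV-OE cells. The groups were apart, and the log2 fold change was 0.67 ± 0.14 (SE, limma adjusted p = 0.101). Abca1, the other main exporter gene, was low, with an FPKM of 0.317 and 0.280 in control cells against 0.908 and 0.564 in SUV-OE cells from 64, 49, 167 and 104 recovered reads. As its entry to the test rested on the SUV-OE values, its direction is a description. Its SUV-OE mean was 246% of the control mean, and its log2 fold change was 0.41 (limma adjusted p = 0.306), 0.27 without SUV-OE replicate 2, 1.04 with a pseudocount of 0.1 and 1.252 with limma-voom (limma-voom adjusted p = 0.0768). Soat1, the cholesterol esterification gene, was at 0.46 and the receptor gene Nr1h3 at 0.48 (224% of its control mean), while the more highly expressed receptor gene Nr1h2 was at -0.25. Abca1, Abcg1 and Mylip are also expressed in mature myeloid cells. The summed FPKM of the neutrophil markers given above was higher in both SUV-OE libraries, and it differed between the control libraries as well. The part of those cells in the values of these genes was not tested.

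**Figure D3:**
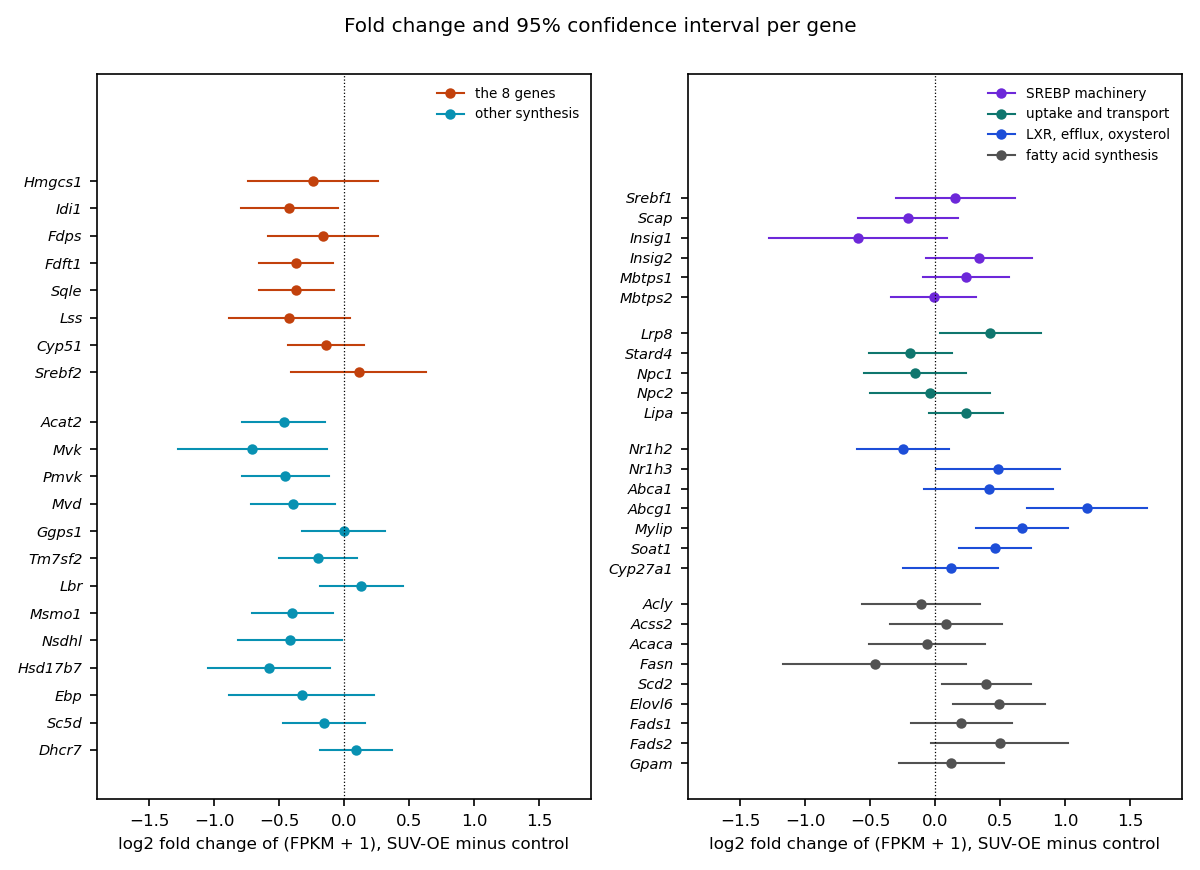
Log2 fold change of (FPKM + 1), SUV-OE minus control (horizontal axis), with its 95% confidence interval from limma (lines) for each tested gene of the 6 lists. The 7 enzyme genes of the first list lie between -0.42 and -0.14 and Srebf2 at 0.11, and Abcg1 at 1.17 is the farthest from 0.

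Fatty acid synthesis shares acetyl-CoA and the SREBP family with the sterol pathway but depends mainly on SREBP1. Of 12 genes listed, 9 were tested, none passed the limma test or limma-voom, and 2 were higher and 0 lower at an unadjusted limma p under 0.05 (10.3% and 10.4% of all tested genes). Groups did not overlap in 4 genes, all of them higher in SUV-OE cells (25.4% of all tested genes). Of the 9, 3 had lower and 6 higher fitted values, and the median log2 fold change was 0.13. Fasn, the fatty acid synthase gene, was the lowest, with a log2 fold change of -0.46 and overlapping groups, at an FPKM of 43.2 and 26.1 in control cells against 27.1 and 21.5 in SUV-OE cells. Fads2, a desaturase gene with the largest difference among those 4 on the log2(FPKM + 1) scale, had an FPKM of 6.24 and 5.23 in control cells against 10.2 and 7.01 in SUV-OE cells, a log2 fold change of 0.50 (limma adjusted p = 0.260) that was 0.26 without SUV-OE replicate 2. As a share of the control mean, Elovl6, a fatty acid elongase gene, was slightly higher, at 151.5% against 150.1% for Fads2. The difference between this list and the sterol enzymes was not tested.

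**Figure D4:**
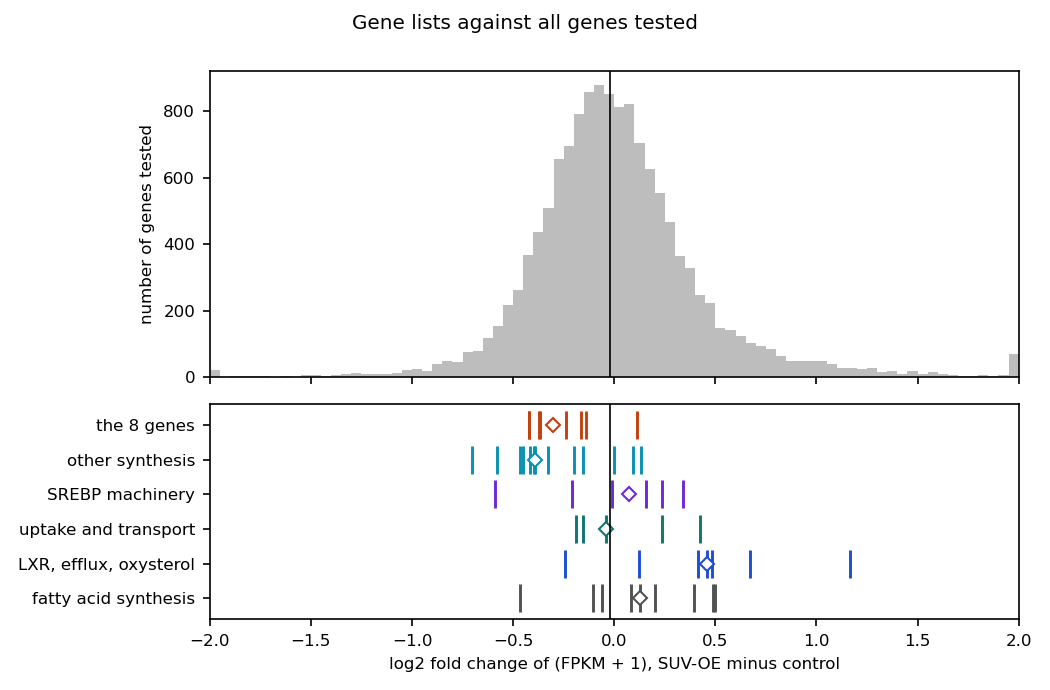
Distribution of the log2 fold changes of all 13736 tested genes (upper panel, with values beyond the axis placed in the end bins) and of the genes of each list (lower panel, 1 tick a gene, diamonds at the list medians), with a vertical line at the median of all genes, -0.02. The medians are -0.30 for the 8 genes, -0.39 for the other synthesis genes, 0.07 for the SREBP machinery, -0.04 for uptake and transport, 0.46 for LXR and efflux and 0.13 for fatty acid synthesis.

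The promoters of the genes are shown because SREBP2 acts through short sterol regulatory elements near the start site, usually beside sites for the cofactors NF-Y (CCAAT) and SP1 (GGGCGG). Windows of 250 bases before the RefSeq start (GRCm38.p6, the same build as mm10) were at hand for 5 of the 8 genes. These were Hmgcs1, Idi1, Lss, Cyp51 and Srebf2. Both strands were searched. A core of the sterol regulatory element, TCACCCCA, was found in Hmgcs1 and Srebf2 and in 1.34% of all 32851 windows. The looser form TCACNNCA, chosen after the sequences were seen and matching every TCACCCCA, was found in Hmgcs1, Srebf2 and Cyp51 and in 11.4% of all windows. CCAAT was present in all 5 windows and in 33.8% of all, and GGGCGG in all 5 and in 32.7% of all. The windows run up to the RefSeq start, so some matches lie inside the annotated gene. These include the CCAAT of Cyp51 at -29 to -25 and the GGGCGG matches of Srebf2 at -79 to -74, -52 to -47 and -34 to -29. A match is a run of letters and not a shown site of binding.

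The stretches below are written 5′ to 3′ on the strand of the gene, and carry TCACNNCA and CCAAT or its complement ATTGG in capitals. Counted from the RefSeq start, they run from -200 to -1 for Hmgcs1, -200 to -50 for Cyp51, -200 to -89 for Srebf2 and -120 to -18 for Lss. For Cyp51, Srebf2 and Lss, the later bases belong to the annotated gene and were left out.
Hmgcs1, chr13:119690151-119690350, forward strand: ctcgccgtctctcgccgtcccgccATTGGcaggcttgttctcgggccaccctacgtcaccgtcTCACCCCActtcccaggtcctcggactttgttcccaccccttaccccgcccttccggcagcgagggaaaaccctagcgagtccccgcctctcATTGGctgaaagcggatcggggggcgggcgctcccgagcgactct
Cyp51, chr5:4104747-4104897, reverse strand: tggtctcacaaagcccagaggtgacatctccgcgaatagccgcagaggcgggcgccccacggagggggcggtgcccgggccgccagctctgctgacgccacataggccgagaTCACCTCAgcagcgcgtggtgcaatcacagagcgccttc
Srebf2, chr15:82147069-82147180, forward strand: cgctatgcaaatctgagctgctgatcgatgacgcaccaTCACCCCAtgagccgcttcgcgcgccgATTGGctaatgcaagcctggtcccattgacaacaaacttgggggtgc
Lss, chr10:76531485-76531587, forward strand: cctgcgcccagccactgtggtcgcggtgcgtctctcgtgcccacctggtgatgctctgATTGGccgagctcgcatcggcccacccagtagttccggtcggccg

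Positions are counted from the RefSeq start and not from the gene starts given above, with the base before the RefSeq start as -1. The core lay at -137 to -130 in Hmgcs1, between a pair of ATTGG runs. It lay at -162 to -155 in Srebf2, where it was followed by an ATTGG run. In Cyp51 the run TCACCTCA lay at -88 to -81. The window of Lss held no TCACNNCA and an ATTGG run at -62 to -58. Hmgcs1 and Srebf2, which hold the core, had log2 fold changes of -0.24 and 0.11, and their control libraries differed by 0.48 and 0.47. The 3 without it were at -0.42 for Idi1, -0.42 for Lss and -0.14 for Cyp51. Each of these had SUV-OE libraries below the control libraries, as did 28.4% of all tested genes. The values are a description of the genes shown. A link between the core and the change was not tested.

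Over all tested genes, the 3 whose centred levels in the 4 libraries lay closest to the median profile of the 8 genes, by the sum of squared differences, were Poc5 (0.000446), Rev3l (0.000521) and Rffl (0.000572). Poc5, a centriole gene, had an FPKM of 9.83 and 8.99 in control cells against 7.92 and 7.16 in SUV-OE cells, with a log2 fold change of -0.29 (limma adjusted p = 0.270). Rev3l and Rffl were at -0.27 and -0.27.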

How the data were processed

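Expression was compared in 2 control and 2 SUV-OE libraries. Per the study's methods and processing notes (CASAVA 1.8, TopHat2, mm10, Cufflinks), the authors deposited FPKM, 1 value for each gene in each library, and the annotation release is not given in the sources used here. The authors' DEG test used DESeq2 on counts, which are not the deposited unit. FPKM values were compared on log2(FPKM + 1) with limma 3.58.1 in R 4.3.3 (intensity trend, mean FPKM of at least 0.5, Benjamini-Hochberg over 13736 genes), a step tested on simulated data. No sample was left out or imputed. Of 23552 identifiers, 23438 had a symbol. At the GENCODE M21 exon lengths 78.5% of genes gave 4 whole read numbers (tolerance 0.01). For 5049 further genes the reads came out whole only at another length, found by search. Among them were Hmgcs1 (6466 bases against 4594 annotated), Fdft1 (5720 against 4227) and Srebf2 (9978 against 7184). The recovered reads of both kinds entered limma-voom only, at a mean of at least 10 reads. Reads are quoted only for genes that came out whole at the annotated length, and the exon overlaps given are those of GENCODE M21. Confidence intervals are limma's and reflect the spread between libraries, while floors of reads cover counting error only. Shared sequence was counted in words of 75 bases over GENCODE M21 transcripts. Gene lists were written from general knowledge, and genes named singly are the 8 genes, Suv39h1, the synthesis and machinery lists, Stard4, Abca1, Abcg1, Mylip, the gene with the largest non-overlapping difference in the uptake, efflux and fatty acid lists, and the 3 nearest profiles. Soat1, Nr1h3, Nr1h2, Ch25h, Elovl6, Fasn and the single markers Kit, Mpo, Ly6c2 and Pecam1 were named after their values were seen. Some genes of these lists are not reported here and were left out of the lists' counts and medians, after the values were seen. The genes and lists were chosen with earlier results of these data known. Alternatives were a pseudocount of 0.1, no filter, a mean FPKM of at least 1, quantile and median-of-ratios scaling, no trend, a robust trend, limma-voom and each library left out. Leaving out Fdps, Idi1 and Fdft1, and leaving out efflux genes under the filter in a group, were added after the data were seen.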

Additional observations from a re-analysis of the deposited data

How the results depend on the processing

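No paired analysis was possible because replicate number 3 alone occurs in control and in SUV-OE. None of the 8 genes passed under any alternative run. Their median log2 fold change was -0.37 to -0.22 with a library left out, and its sign held in every alternative. With a library left out, 0 to 1 of the 8 genes (Srebf2, without control replicate 3) had its SUV-OE libraries above control. Without Fdps, Idi1 and Fdft1, 3 of the 5 genes left had non-overlapping groups with lower SUV-OE values (28.4% of all tested genes). The number of all genes passing was 0 lower and 0 higher without the filter on low values (4177 at an unadjusted limma p under 0.05), 262 lower and 617 higher with limma-voom, and 74 higher with a pseudocount of 0.1. With any 1 library left out it was 0 to 0 in each direction (1166 to 3877 at an unadjusted limma p under 0.05), where the lone library of a group is assumed to vary like the other group. Suv39h1 then had a log2 fold change of 2.51 to 2.62 and did not pass, nor did it without the filter. Medians of the other lists with a library left out were -0.45 to -0.29 for other synthesis, -0.025 to 0.16 for the SREBP machinery, -0.093 to 0.15 for uptake, 0.43 to 0.50 for the 5 LXR and efflux genes counted (0.34 to 0.54 with Abca1 and Nr1h3) and 0.052 to 0.29 for fatty acid synthesis. The uptake median was 0.18 after quantile normalization. The median of the 5 efflux genes was 0.50 with a pseudocount of 0.1 and 0.51 with limma-voom. With Abca1 and Nr1h3, whose SUV-OE values alone took them past the filter, it was 0.75, 0.75 and, after quantile normalization, 0.34. With limma-voom 1 efflux gene passed as higher (Abcg1, log2 fold change 1.41). The sign turned with a library left out for 5 genes, whose log2 fold changes ranged from -0.48 to 0.0021 for Hmgcs1, -0.13 to 0.35 for Srebf2, -0.085 to 0.079 for Ggps1, -0.011 to 0.33 for Srebf1 and -0.061 to 0.040 for Mbtps2. Without control replicate 3, Mvk was at -0.47, Insig2 at 0.18 and Stard4 at -0.097. Mbtps1 was at 0.13 without control replicate 4 and Nsdhl at -0.25 without SUV-OE replicate 3. Where a result moved, the cause was not tested beyond the loss of libraries or genes that an alternative makes. Of 442 values of 37 single genes under alternatives, 429 kept their sign and their side of the threshold. Only Suv39h1 among these genes passed in the main run, so keeping the non-passing side is no sign of stability for the others. Depth limits Fdps and Abca1, which rest on 167 reads or fewer in every library.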
